A study of Mus musculus with 8 samples.

Results

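The Hippo pathway is a kinase relay that restrains growth and keeps the transcriptional coactivator YAP out of the nucleus. The 10 genes described here are its central parts in the mouse: the upstream scaffolds Wwc1 (KIBRA), Wwc2 and Nf2, the kinases Stk3, Stk4, Lats1 and Lats2, the adaptors Sav1 and Mob1a, and the coactivator Yap1. They were taken as the rows, out of 15978 in the authors' deposited table of differential expression, whose RefSeq accessions belong to these genes, and each of the 10 had 1 row. The set was chosen by the unadjusted p of Wwc1 in these same data, around which the other 9 genes were added by pathway, so that value and the counts over the set are descriptions.

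The table compares brain RNA of 5 male C9-BAC mice with that of 3 male wild-type mice. C9-BAC mice express human C9ORF72 from a BAC, a bacterial vector for long genomic inserts, that includes 500 G4C2 repeats, the hexanucleotide whose expansion causes amyotrophic lateral sclerosis and frontotemporal dementia. All 8 mice were on an SJL/Bl6 background, and the labels name no brain region, age, transgenic line or batch. Nothing in the labels says how the mice were related. The p-values set the difference between genotypes against a modelled standard error and do not themselves measure a spread between mice. Variation between these samples may in part be technical. In bulk tissue, fewer cells of a type and less RNA per cell cannot be told apart.

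In the canonical relay, STK3 and STK4 (also known as MST2 and MST1), held by the adaptor SAV1, activate LATS1 and LATS2 with the help of MOB1. LATS kinases then phosphorylate YAP, and this keeps it in the cytoplasm, whereas unphosphorylated YAP binds TEAD factors on DNA and turns on growth genes. KIBRA and merlin, the product of Nf2, act upstream by bringing the kinases together at the membrane. In neurons KIBRA has a further role: it is a postsynaptic scaffold that binds the atypical kinase PKM-zeta and AMPA receptor complexes, and variation in the human gene has been studied in relation to memory. In the brain YAP is known mainly from astrocytes and other non-neuronal cells.

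The promoters of Wwc1 and Wwc2 are shown because these paralogs gave the largest and the next largest positive fold changes of the set. Each is the 250 bases before the RefSeq start, 5′ to 3′ on the minus strand, from build GRCm38.p6 (mm10), at chr11:35980528-35980777 for Wwc1 and chr8:47990545-47990794 for Wwc2. Capitals mark the core hexamer read by TEAD factors, searched as GGAATG and CATTCC, which are the same motif on either strand.
Wwc1: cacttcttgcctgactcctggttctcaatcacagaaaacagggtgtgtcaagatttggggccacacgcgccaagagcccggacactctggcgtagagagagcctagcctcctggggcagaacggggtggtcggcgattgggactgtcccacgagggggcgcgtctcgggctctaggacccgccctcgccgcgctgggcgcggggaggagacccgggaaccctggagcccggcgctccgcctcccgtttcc
Wwc2: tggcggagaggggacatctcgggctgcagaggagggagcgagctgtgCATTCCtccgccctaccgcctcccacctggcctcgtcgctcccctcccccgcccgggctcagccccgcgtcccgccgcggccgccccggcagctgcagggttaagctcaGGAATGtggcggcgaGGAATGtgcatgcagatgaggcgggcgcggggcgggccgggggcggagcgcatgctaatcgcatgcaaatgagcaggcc
The Wwc2 window held the hexamer at 3 positions, starting 203, 94 and 79 bases before the start, and the Wwc1 window held it at 0 positions. Across RefSeq promoters of the same length, 4153 of 32851 (12.6%) held the hexamer, and 1741 of 15901 (10.9%) among genes in the table. Promoter sequences were found for 9 of the 10 genes, 11 windows in all. The hexamer was in 4 of these windows (36.4%), those of Wwc2, Sav1, Mob1a and Yap1, and the share was not tested. A match of 6 bases describes the window and is not a bound site.

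The 11 windows had a median GC content of 67.2% and a median of 22 CG pairs, against 59.2% and 14 over 15901 promoters of genes in the table. Yap1 with 44 CG pairs and Sav1 with 43 had the most, Lats1 followed with 37, and Wwc1 with 22 and Wwc2 with 26 were intermediate. Nf2 and Lats2 have 2 windows each, with 2 and 20 CG pairs for Nf2 and 4 and 31 for Lats2.

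No gene of the set passed an adjusted p of 0.05 in the comparison of C9-BAC mice with wild-type mice. By the authors' deposited table, 0 of the 10 genes and 0% of 15944 rows with a p passed, and every one of the 10 had a DESeq2 adjusted p of 0.9997. At an unadjusted p under 0.05 the authors' deposited table holds 1 of the 10 genes, Wwc1, beside 239 of all rows, or 1.5%. The row was also the only one of the 10 under 0.01, a level reached by 0.157% of rows. Wwc1 was picked for this value, so nothing is read from that share. The other 9 genes had unadjusted p-values of 0.168 or more in the authors' deposited table.

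The table does not state which genotype is the numerator of its fold changes, so positive and negative refer here to the deposited sign and name no genotype. Values per mouse were not analysed here, and the standard error (SE) in the authors' deposited table, a model estimate, is the only measure of error used. Those standard errors had a median of 0.0517 under a mean normalized count of 10 and 0.102 over all rows, a pattern known from estimates shrunk toward 0. If the fold changes were shrunk, the intervals below do not bound the true differences.

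Among the upstream scaffolds, Wwc1 had the largest value, the one the set was chosen around. Its log2 fold change in the authors' deposited table was 0.30 (SE 0.11), a 1.23-fold difference with a 95% Wald interval of 1.06 to 1.43. Wwc1 was picked for its small p, so an interval excluding 1 follows from that choice. Its nominal 95% coverage does not hold, and the estimate may be too large. With an unadjusted p of 0.00532 from DESeq2, Wwc1 ranked 14 by p in the authors' deposited table. There, 8 rows had a larger positive statistic. The standard error was on the high side for its abundance, above that of 87.7% of the 1387 rows of like mean count (within 0.1 on the log10 scale) in the authors' deposited table. Wwc1 lies on chromosome 11 at 35838399 to 35980527 (mm10) and its row counts 1 RefSeq transcript, 4531 bases long.

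Wwc2, the paralog of Wwc1 on chromosome 8 at 47826082 to 47990544, had the same sign in the authors' deposited table, with a log2 fold change of 0.07 (SE 0.10). Its 95% interval, -0.12 to 0.25 on the log2 scale of the authors' deposited table, includes 0 and overlaps that of Wwc1, 0.09 to 0.52. The deposited values differ by 0.24 between Wwc1 and Wwc2, and that difference was not tested, because the table gives no covariance between rows. Nf2, on chromosome 11 at 4757639 to 4849544, encodes merlin, a tumour suppressor linking membrane and cytoskeleton, and had a log2 fold change of 0.06 (SE 0.09) in the authors' deposited table. Wwc2 and Nf2 were thus positive as deposited, but their intervals include 0. Wwc1 was chosen for its value, so no pattern by role is read from these signs.

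The 4 kinases lay between -0.08 and 0.002 in log2 units in the authors' deposited table. Stk4 (chromosome 2, 164074113 to 164155524) had the value nearest to 0 of all 10 genes, with a log2 fold change of 0.002 (SE 0.09) in the authors' deposited table (unadjusted p = 0.982). Its partner Stk3 (chromosome 15, 34875499 to 35155882) had -0.06 (SE 0.11) in log2 units in the authors' deposited table. The LATS kinases, which act directly on YAP, were close to each other in the authors' deposited table, at a log2 fold change of -0.07 for Lats1 (chromosome 10, 7681200 to 7716461) and -0.08 for Lats2 (chromosome 14, 57689662 to 57746212), each with a standard error of 0.10. The 95% intervals of all 4 kinases include 0.

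The adaptors and the coactivator were negative as deposited. Sav1, which holds STK3 and STK4 in an active complex, is on chromosome 12 at 69965009 to 69988141 and had the most negative log2 fold change of the set in the authors' deposited table, -0.15 (SE 0.11, unadjusted p = 0.168). Mob1a (chromosome 6, 83326034 to 83342812), the LATS coactivator, had -0.05 (SE 0.11) in log2 units in the authors' deposited table. Yap1 (chromosome 9, 7931999 to 8004638) had a log2 fold change of -0.10 (SE 0.10) in the authors' deposited table, a 95% interval of 0.816 to 1.06 as a fold. None of these 3 intervals excludes a fold of 1.

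As a set, 4 genes were positive and 6 negative in the authors' deposited table, with a median log2 fold change of -0.06, against -0.004 over all rows, of which 47.5% were positive. Without Wwc1 the other 9 genes ran from -0.15 to 0.07 on the log2 scale of the authors' deposited table, with a median of -0.06. For single genes, an unadjusted p of 0.05 would have needed a log2 fold change of 0.167 for Stk4 and up to 0.216 for Stk3 at the standard errors of the authors' deposited table. A smaller deposited value would not have passed that threshold.

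**Figure D1:**
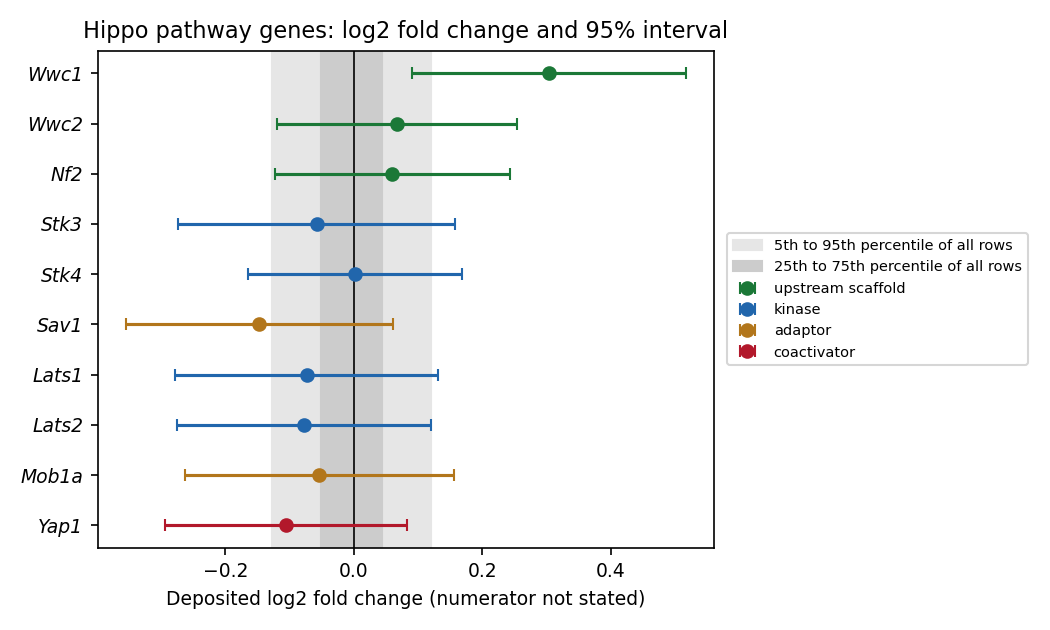
Deposited log2 fold change of each of the 10 Hippo pathway genes (points, coloured by role) with its 95% Wald interval (bars), over shaded bands for the central 5th to 95th and 25th to 75th percentiles of all rows. The interval of Wwc1, 0.09 to 0.52, excludes 0, which follows from the choice of Wwc1 by its p. The intervals of the other 9 genes cross 0.

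All 10 genes were measured well above the floor of the table. Their mean normalized counts, the authors' means over all 8 mice in the authors' deposited table, ran from 94.0 for Mob1a to 761.0 for Nf2, with 702.6 for Wwc1, 585.5 for Stk4, 564.0 for Lats1, 474.4 for Wwc2, 248.9 for Lats2, 214.9 for Yap1, 186.9 for Stk3 and 113.4 for Sav1. The median was 361.6 for the set and 171.5 over all rows with a p in the authors' deposited table. Every one of the 10 passed the minimum mean count of 10 used in the rescaled settings.

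Counts per kilobase of the longest matched transcript adjust for length only, so comparisons between genes are rough. On this scale Nf2 (161.2) and Wwc1 (155.1) led the set in mean normalized count. Stk4 followed at 111.9 per kilobase, and the other 7 genes lay between 21.3 (Mob1a) and 78.2 (Lats1). The median of the set, 59.4 per kilobase, was near the median of all rows, 59.9. The order is least sure for genes with isoforms of unequal length: over the median matched transcript, Nf2 came to 308.1 and Lats2 to 83.3 per kilobase, in place of 161.2 and 47.9.

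Most paralogs differed in level. Wwc1 stood at 2.84 times the per-kilobase count of Wwc2, and Stk4 at 1.75 times that of Stk3. Lats1 exceeded Lats2 by 1.63 times on the longest transcripts, an order that turns round on the median transcripts (78.2 for Lats1 and 83.3 for Lats2). Mob1b, the paralog of Mob1a and interchangeable with it in the relay, stood at 1.64 times the level of Mob1a. Yap1 and its paralog Wwtr1 (TAZ) were nearly level, at 51.5 and 52.0 per kilobase. These ratios carry no replicate error, since 1 mean per gene over all mice was deposited.

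**Figure D2:**
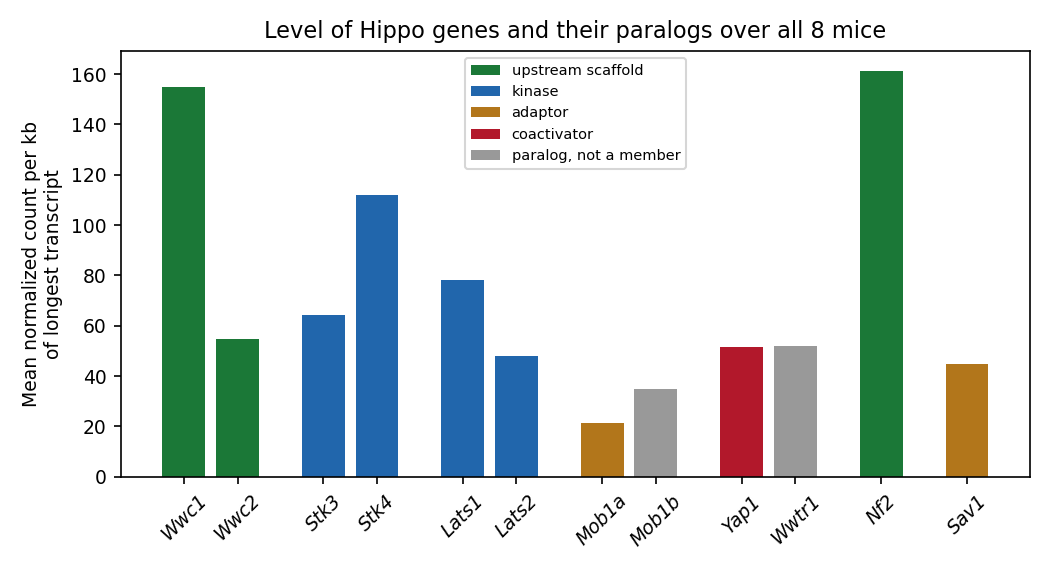
Mean normalized count per kilobase of the longest matched transcript over all 8 mice, for the Hippo pathway genes (coloured by role) and the paralogs Mob1b and Wwtr1 (grey), with 1 deposited mean per gene and so no error bars. Nf2 at 161.2 and Wwc1 at 155.1 are the tallest bars, and Mob1a at 21.3 is the shortest.

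The matched transcripts of Lats2 share sequence with another annotated gene. Of the distinct windows of 50 bases in the matched Lats2 transcripts, 2907 of 5505 (52.8%) also occur in a transcript of Gm49361, which the GENCODE vM21 annotation places over the same locus. For Lats1 2 of 7160 windows were shared with another gene, and for the other 8 genes 0 windows were shared, paralogs included. How shared reads were counted is not stated in the labels. No row with a p overlapped Lats2 in gene bounds, and any effect of the shared sequence on its row was not tested. In gene bounds, Lats1 overlaps the row of Pcmt1, a protein repair methyltransferase gene (log2 fold change 0.02 in the authors' deposited table), and Sav1 overlaps that of Gm3086, a transcribed pseudogene (-0.02 in the authors' deposited table).

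The rows next to Wwc1 on chromosome 11 had values near 0. Rars, an arginyl-tRNA synthetase gene 3.87 kb away, had a log2 fold change of -0.001 (SE 0.09) in the authors' deposited table. Tenm2, a teneurin adhesion gene 26.1 kb away on the other side, had 0.04 (SE 0.10) in log2 units in the authors' deposited table. Differences from these neighbours were not tested.

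Across the table the Wald statistic moved with the GC content of the transcript, and the set was read against this. As a description over 13627 rows that share the same 8 libraries, Spearman's rank correlation between statistic and GC content was 0.414. The 4 positive genes had transcripts of 46.8 to 57.1% GC (median 51.3%) and the 6 negative ones of 42.5 to 50.7% (median 44.7%), with 50.5% over all rows. Stk3, Mob1a and Lats1, all under 44% GC by their values of 42.5, 43.4 and 43.0%, lay close to rows of like composition: their statistics in the authors' deposited table, -0.52, -0.50 and -0.70, sit beside medians of -0.47, -0.42 and -0.44 over rows within 1 percentage point of GC.

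Wwc1, with 57.1% GC, lay at the positive end of rows of like composition. Its statistic of 2.79 in the authors' deposited table compares with a median of 0.29 over the 1387 rows within 1 percentage point of GC, and exceeded 99.9% of them. Yap1 and Sav1 lay toward the negative end of rows of like composition, at percentiles 6.47 and 5.51, and Wwc2 toward the positive end at 84.7. With GC content and length fitted out and the statistic rescaled to its own spread over rows, Wwc1 had 3.62 (Benjamini-Hochberg adjusted p = 0.168 over 13627 rows), and all 10 genes kept their sign. In that setting 1 of the 10 genes and 6.19% of rows had an unadjusted p under 0.05. The gene was again Wwc1, also with the statistic only rescaled (4.95% of rows) or with mean expression fitted out (5.14% of rows). Wwc1 was picked for its deposited p, so nothing is read from these counts.

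**Figure D3:**
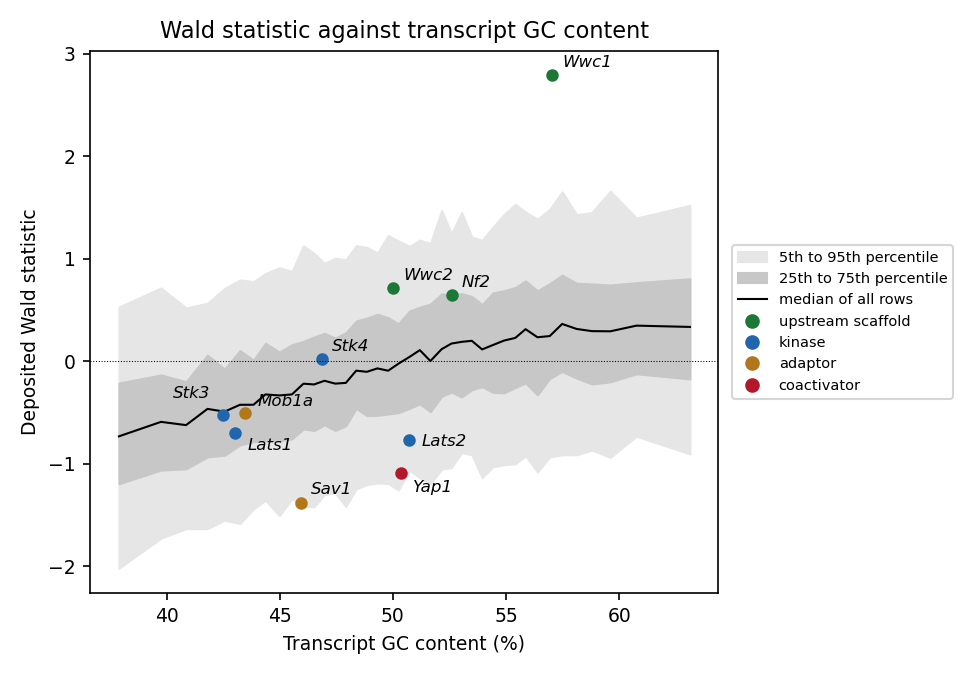
Deposited Wald statistic (vertical axis) against transcript GC content in percent (horizontal axis) for the 10 Hippo pathway genes, over the median line and percentile bands of all rows with a GC value. Wwc1 at 57.1% GC and 2.79 stands above the band of the 5th to 95th percentiles, while Stk3, Mob1a and Lats1 sit near the median line.

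Further genes of the pathway were followed in 5 lists of regulators, partners and targets, with 86 measured genes besides the set. By the authors' deposited table, 45 were positive and 41 negative, with a median log2 fold change of 0.004, 0 had an adjusted p under 0.05 from DESeq2, and 2 (2.33%) had an unadjusted p under 0.05, beside 1.5% of all rows. These were Mob1b and Strn4. With GC content and length fitted out and the statistic rescaled, 5 of the 82 connected genes with a value (6.10%) had an unadjusted p under 0.05, beside 6.19% of rows. They were Strn4 (0.0174), Sike1 (0.0310), Tead2 (0.0288), Ccn2 (0.0112) and Ddn (0.0428), while Mob1b had 0.0601 in that setting and 0.0121 when the statistic was only rescaled. The median log2 fold change of the lists in the authors' deposited table ran from -0.07 to 0.01.

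Other upstream regulators counted 15 positive and 15 negative among 30 genes of the authors' deposited table, with a median of -0.002 on the log2 scale. Mob1b (chromosome 5, 88720871 to 88758455) had a log2 fold change of -0.21 (SE 0.10) in the authors' deposited table (unadjusted p = 0.0438, adjusted p = 0.9997 by DESeq2). Its transcript has 39.1% GC. Mob1b and Mob1a had the same sign, with values of -0.21 and -0.05 in the authors' deposited table, and the difference between them was not tested. Stk38l, a kinase related to the LATS pair, had the next smallest p, with a log2 fold change of -0.13 (SE 0.09) in the authors' deposited table.

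The STRIPAK complex carries the phosphatase PP2A to STK3 and STK4 and so opposes the relay. Of its 16 genes, 6 were positive and 10 negative in the authors' deposited table, with -0.07 as their median log2 fold change and a median transcript GC content of 45.4%. Strn4, a striatin scaffold, had a log2 fold change of 0.15 (SE 0.08) in the authors' deposited table (unadjusted p = 0.0469).

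YAP has no DNA-binding domain and acts through partners, chiefly the TEAD factors. Of these, 0 had an unadjusted p under 0.05 as deposited, beside 1.5% of all rows. With GC content and length fitted out Tead2 had one, as did 6.19% of rows. Tead3 and Tead4, under the minimum mean count of 10, had no value in that setting. By the authors' deposited table, 3 of 10 transcriptional partners were positive and 7 negative, with a median log2 fold change of -0.01. Tead2, at a mean normalized count of 18.8, had a log2 fold change of -0.11 (SE 0.09) in the authors' deposited table, and Tead1 122.9 and -0.04 (SE 0.10). Tead3 and Tead4 had mean normalized counts of 9.16 and 3.20 in the authors' deposited table. Wwtr1, on chromosome 3 at 57455644 to 57575910, had a log2 fold change of -0.02 (SE 0.10) in the authors' deposited table, beside -0.10 for Yap1.

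Genes known as YAP targets were 14 positive and 7 negative among 21 of the authors' deposited table, with a median log2 fold change of 0.01. Lats2, itself a target and part of the negative feedback on YAP, belongs to both this list and the set. Ccn2 (CTGF), a secreted matrix protein gene, had the largest value of the list in the authors' deposited table, a log2 fold change of 0.20 (SE 0.11, unadjusted p = 0.0664, and 0.0112 with GC content and length fitted out). In the fitted setting 6.19% of rows had an unadjusted p under 0.05. Arhgef17, a guanine nucleotide exchange factor gene, had 0.11 (SE 0.10) in log2 units in the authors' deposited table. Ankrd1, a further gene of the list, was not analysed here.

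Of 13 synaptic partners of KIBRA in the authors' deposited table, 8 were positive and 5 negative. Their median log2 fold change was 0.01. Of these 13, 0 had an unadjusted p under 0.05 as deposited, beside 1.5% of all rows. With so few genes, nothing is read from that count. Ddn, which encodes the postsynaptic protein dendrin that binds KIBRA, had a log2 fold change of 0.11 (SE 0.06) in the authors' deposited table (unadjusted p = 0.0744, and 0.0428 with GC content and length fitted out). In the fitted setting 6.19% of rows had an unadjusted p under 0.05. Gria2, an AMPA receptor subunit gene, had -0.10 (SE 0.09) in log2 units in the authors' deposited table. On the per-kilobase scale of mean normalized counts, only Prkci (149.3), Ddr1 (93.6) and Patj (31.7) of this list stood below Wwc1 (155.1). All its other genes stood above Wwc1, among them Ddn (2522) and Gria2 (797.8).

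**Figure D4:**
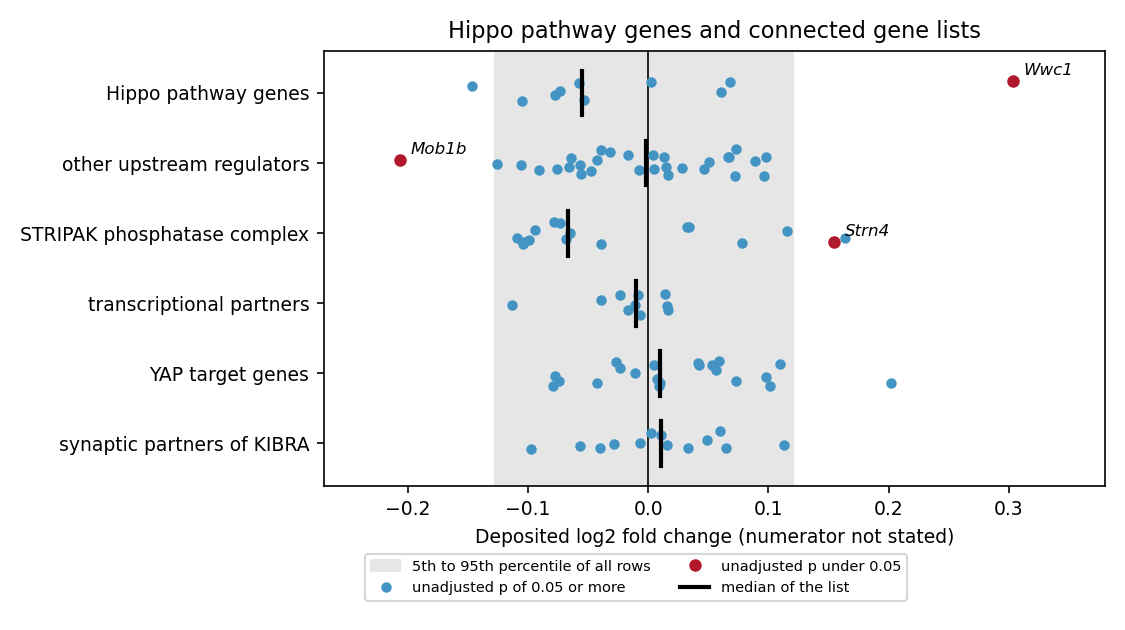
Deposited log2 fold change of each gene in the Hippo pathway set and in 5 connected lists (points, red where the unadjusted p is under 0.05, with vertical scatter for display), with the median of each list as a black bar and the 5th to 95th percentile of all rows shaded. Wwc1 at 0.30 is the point farthest from 0, and Mob1b at -0.21 and Strn4 at 0.15 are the other red points.

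Brain markers were present. The neuronal list had a lowest mean normalized count of 1730 and the astrocyte list of 82.8 in the authors' deposited table. Ependymal and choroid plexus markers were near the floor, with a lowest mean normalized count of 1.92. Only 5 of the 8 measured reached a mean count of 10. In the authors' deposited table the neuronal markers were 8 positive and 2 negative (median log2 fold change 0.07), the endothelial and mural markers 9 and 2 (0.05) and the meningeal fibroblast markers 6 and 2 (0.07). Oligodendrocyte progenitor markers were 6 positive and 2 negative (0.02) in the authors' deposited table, ependymal and choroid plexus markers, with 8 of 9 measured, 4 and 4 (0.005), astrocyte markers 2 and 8 (-0.02), oligodendrocyte markers 3 and 7 (-0.03) and microglia markers 3 and 7 (-0.03). By the median, the neuronal, endothelial and mural, meningeal fibroblast, oligodendrocyte progenitor and ependymal lists had the sign of Wwc1. The astrocyte, oligodendrocyte and microglia lists had that of Yap1. With GC content and length fitted out, the ependymal and choroid plexus list had 2 positive and 3 negative. The other lists kept the sign of their majority. The part of any cell type in the values of the set was not tested. Mouse C9orf72, the counterpart of the human transgene, had a log2 fold change of -0.08 (SE 0.10) in the authors' deposited table, and the human transgene itself was not analysed here.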

How the data were processed

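Brain RNA of 5 C9-BAC and 3 wild-type mice was extracted with Trizol and made into strand-specific libraries without poly(A) selection, per the labels' protocols. Trimmomatic, Bowtie2, DESeq and DESeq2 with build mm10 are named without versions, per the submitters' processing notes, and neither the read counter nor the filters are stated there. The mean normalized count, a signal averaged over all samples, was deposited by the authors, and log2 fold changes with their errors (log2 units) are also as deposited. The authors likewise deposited the Wald statistic (a score) with its p-value, raw and adjusted; this statistic equalled the ratio of fold change to standard error within 8.3e-07. Mean normalized counts summed to 9226666, the only measure of depth used here.

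The design rests on the authors' test, since the file holds results of 1 comparison. Of 15978 rows, 15857 took symbols from RefSeq (GRCm38.p6) and 73 from GENCODE vM21. GC content and length are medians over matched vM21 transcripts (99.3% of rows), and counts per kilobase use the longest. The 95% intervals are the fold change plus or minus 1.96 standard errors. Alternatives rescaled the statistic to its median and MAD-based SD over rows with a mean count of at least 10, alone or as residuals of quadratic fits on GC content and log10 length or on log10 mean count. The fit on GC content and length with its rescaling was tested on simulated statistics with a linear trend in GC content and no effect of length. The planted effects were larger than the statistic of Wwc1, so that test does not bear on effects of its size. The genes and lists were chosen with earlier results of these data known. The naming rule took the 10 genes, mouse C9orf72, Mob1b, Wwtr1 and the 2 genes of smallest p in each connected list, of which 1 is not reported here; neighbouring and overlapping genes, Tead3, Tead4, Sike1, Prkci, Ddr1 and Patj were named after their values were seen. Python 3.11.15, pandas 2.3.3 and scipy 1.17.1 were used.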

Additional observations from a re-analysis of the deposited data

How the results depend on the processing

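The count of Hippo pathway genes with an unadjusted p under 0.05 was 1 in every setting run: with the statistic rescaled to its own spread, with GC content and length or mean expression fitted out, and at a threshold of 0.01. That gene was Wwc1, picked for its deposited p, so its passing in each setting is no independent check. Rescaling alone divides by an SD of 0.789 over rows, which by itself enlarges a statistic such as that of Wwc1. The statistic of Wwc1, 2.79 as deposited, was 3.58, 3.62 and 3.57 in the 3 rescaled settings, with adjusted p-values of 0.394, 0.168 and 0.409. The count of positive genes was 4 in each setting. The median log2 fold change of the set was -0.06 also with a minimum mean count of 100. A minimum of 10 removed no gene from 3 of the connected lists, and gave medians of -0.02 for the transcriptional partners and 0.03 for the YAP targets, in place of -0.01 and 0.01. Over the whole table, 0 genes had an adjusted p under 0.05 from DESeq2, with 239 at an unadjusted p under 0.05, also 0 when adjusted over rows with a mean count of at least 10 or rescaled alone, and 3 with GC content and length fitted out, Lamp5, Mical2 and Snrpn, which are not Hippo pathway genes and were named after their values were seen; the cause was not tested. No paired analysis was possible because the genotypes share no replicate numbers and the table holds no values per mouse. Fits without 1 mouse were not run for the same reason. Mean normalized counts were lowest for Mob1a (94.0) and Sav1 (113.4), and shrinkage of the fold changes, if used, leaves true sizes unbounded.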
